A study of Arabidopsis thaliana with 8 samples.

Results

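Roots of Arabidopsis thaliana that had received nitrate for 20 min were compared with roots that had received potassium chloride (KCl) for the same time. The comparison used 4 of the 8 arrays of the series, chosen by the organ and the salt named in the sample titles, with 2 root samples in KCl and 2 in nitrate, and the other 4 arrays held shoots under the same treatments. All plants were wild type of the accession Col-0, 10 days old, from liquid culture under constant light, and were given 250 µM potassium nitrate or 250 µM KCl, so that both groups received potassium at the same concentration. Many seedlings shared 1 beaker. Nothing in the labels tells separate cultures from repeat samples of one, so a p-value covers only the variation between 2 samples, which could be technical. Whole roots were used, and in such bulk samples fewer cells of a type and less RNA per cell cannot be told apart.

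Nitrate is taken up by roots, reduced to nitrite by the molybdenum enzyme nitrate reductase and then to ammonium by nitrite reductase in plastids. In roots the nitrite step draws on NADPH from the oxidative pentose phosphate pathway, and assimilation of the ammonium draws on carbon skeletons from glycolysis. Nitrate is also a signal in its own right. NIN-like transcription factors, which are activated when nitrate is perceived, switch on genes of uptake, reduction and carbon supply within minutes, and GARP proteins of the NIGT1/HHO family are among their early targets and restrain part of the response.

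Each array gave 1 signal intensity for each of 22746 probe sets, which are groups of short probes designed for 1 transcript. Median signals lay between 42.3 and 45.4 on the root arrays. Precision is limited by there being only 2 arrays a group. The 2 replicates correlated with a Pearson r of 0.98 in KCl and in nitrate, across probe sets, which are not independent. A gene name was available for 13513 probe sets, and the others were tested without a name; nitrate reductase, nitrite reductase and most nitrate transporters were not analysed here by name. The 4 green tissue markers with a named probe set summed to between 241 and 359 on the root arrays and to between 6969 and 11063 on the shoot arrays. The 3 root cell markers summed to between 3449 and 4186 in roots and to between 2263 and 3241 in shoots. Most of that sum was PYK10, at 3083 to 3727 in roots and 2220 to 3214 in shoots, which overlapped, whereas the root hair expansin genes EXPA7 and EXPA18 had signals of 121 to 176 and of 237 to 284 in roots against 3.59 to 25.4 and 2.07 to 35.1 in shoots.

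Among the probe sets that passed the adjusted threshold, rises far outnumbered falls at 20 min. Over all probe sets, 114 rose (0.501%) and 5 fell (0.022%), together 0.523% of those tested (limma, Benjamini-Hochberg adjusted p under 0.05). The rises were also larger. Of the 114, 112 changed at least 2-fold and 60 at least 4-fold, with a median log2 change of 2.08, whereas 4 of the 5 falls reached 2-fold, none reached 4-fold, and their median was -1.15. The nitrate and KCl arrays overlapped in none of these 119 probe sets; over all probe sets, both nitrate arrays lay above both KCl arrays in 13.8% and below them in 21.1%. Over all probe sets the median change was -0.02, and 1803 had an unadjusted p under 0.05, of which 810 were higher and 993 lower in nitrate. Without the adjustment, falls thus outnumbered rises. In a second fit with replicate number as a block, 273 rose and 109 fell at the same adjusted threshold. The balance of rises and falls therefore depends on the fit and the threshold.

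All log2 changes are differences of log2(signal + 16), which understates the change of weak transcripts. For scale, 215 probe sets were over 2-fold higher and 45 over 2-fold lower in mean. Between single arrays, 171 differed by over 2-fold between the 2 KCl arrays and 149 between the 2 nitrate arrays. A difference between single arrays is noisier than one between means of 2, so these counts are not like for like. When probe sets of low signal were left out before the test, 252 of 13647 rose (1.85%) and 76 fell (0.557%), and these included all 114 and all 5. Genes called in that narrower test but not over all probe sets are named below as such; several of them also passed under other alternatives. With 1 array left out, the count of rises was 5 without KCl replicate 1, 0 without KCl replicate 2, 16 without nitrate replicate 1 and 45 without nitrate replicate 2, and at most 1 probe set fell in any of these fits.

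**Figure D1:**
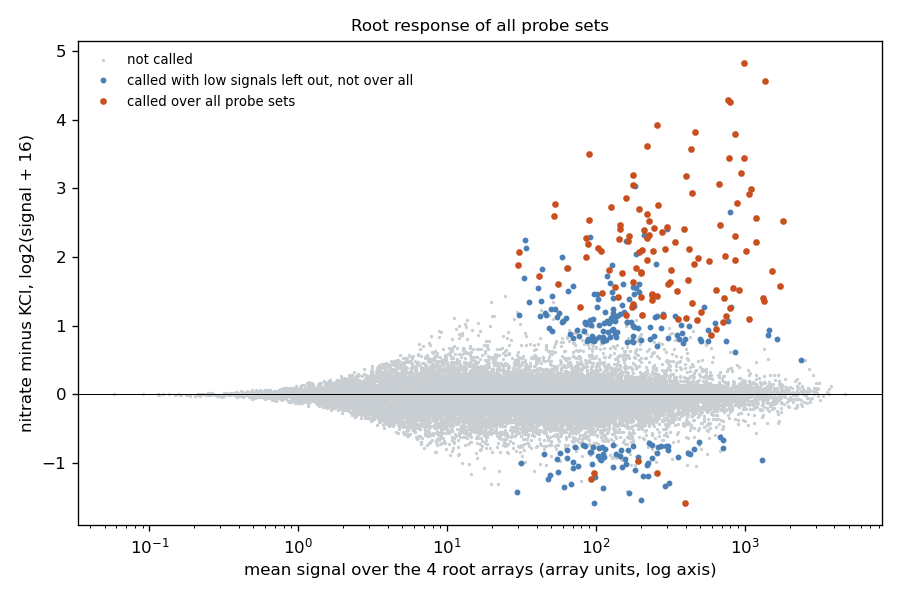
Each point is 1 probe set, with its mean signal over the 4 root arrays on the horizontal log axis (array units) and its change, nitrate minus KCl, in log2(signal + 16) on the vertical axis. The 114 rises called over all probe sets reach 4.82 and the 5 falls go no lower than -1.57; the further calls made with low signals left out (blue) overlap both in size.

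Enzymes of carbon metabolism held several of the largest rises. PGM (AT1G78050), a phosphoglycerate/bisphosphoglycerate mutase, an enzyme type that interconverts glycolytic intermediates, had signals of 60.5 and 65.5 in KCl and of 1820 and 1219 in nitrate. Its log2 signal rose by 4.25 ± 0.20 (SE; limma, adjusted p = 0.00494), the largest rise among probe sets with a named gene. A second gene of the mutase family, AT1G22170, went from 78.5 and 85.8 to 297 and 342, a rise of 1.77 ± 0.12. In both genes the nitrate arrays stood clear above the KCl arrays. That was so for all 114 called rises and for 13.8% of all probe sets. AT1G80380, which encodes glycerate kinase and makes the phosphoglycerate on which mutases act, went from 72.2 and 61.4 to 865 and 625 (3.19 ± 0.18; limma, adjusted p = 0.00692).

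In the oxidative branch of the pentose phosphate pathway only the 3 genes of 1 step had a named probe set, and 2 of them rose. PGD3 (AT5G41670) and PGD1 (AT1G64190) encode 6-phosphogluconate dehydrogenases, which release NADPH and carbon dioxide from 6-phosphogluconate. PGD3 had signals of 246 and 229 in KCl against 2090 and 1715 in nitrate and rose by 2.91 ± 0.13 (SE; limma, adjusted p = 0.00494). PGD1 went from 568 and 485 to 3230 and 2983 and rose by 2.53 ± 0.13 (limma, adjusted p = 0.00495). The third gene of the family, AT3G02360 (PGD2), had signals of 1195 and 1265 against 1259 and 1299, a log2 change of 0.06 that did not pass the test. MDH (AT3G47520), the plastidic NAD-dependent malate dehydrogenase that exchanges reducing power through malate, rose by 1.52 ± 0.15, from 447 and 488 to 1546 and 1207 (limma, adjusted p = 0.037). The fructokinase gene AT5G51830 was called with low signals left out but not over all probe sets, at 90.3 and 74.1 in KCl and 665 and 380 in nitrate, a log2 change of 2.41 ± 0.28.

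Genes close to nitrate reduction itself rose as well. AT2G43760 (CNX6) encodes the large subunit of molybdopterin synthase, which builds the molybdenum cofactor of nitrate reductase. Its signals were 119 and 116 in KCl and 400 and 313 in nitrate, a rise of 1.47 ± 0.15 (SE; limma, adjusted p = 0.037). AT5G62720 and AT3G47980 encode membrane proteins of the HPP family, members of which carry nitrite into plastids in Arabidopsis. AT5G62720 went from 3.87 and 3.35 to 61.0 and 51.5, a rise of 1.88 ± 0.17 (limma, adjusted p = 0.026).

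AT3G47980 had 2 probe sets. One had signals of 1.39 and 1.91 in KCl and of 113 and 95.6 in nitrate, a rise of 2.77 ± 0.17 (SE; limma, adjusted p = 0.00891). The other gave 26.3 and 13.4 against 108 and 112, a log2 change of 1.84 that passed with low signals left out but not over all probe sets; its mean in KCl was below the limit for low signals, so it was kept through its nitrate arrays. Both probe sets were higher in nitrate, and they disagreed on the size of the change.

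Transcription factors among the rises came from several families. AT1G68670 (HHO2) and AT1G25550 (HHO3) encode GARP repressors of the NIGT1/HHO type. HHO2 went from 81.1 and 76.7 to 538 and 415 and rose by 2.36 ± 0.15 (SE; limma, adjusted p = 0.00954), and HHO3 from 112 and 106 to 575 and 562, by 2.22 ± 0.10 (limma, adjusted p = 0.00494). AT5G58900, a MYB-related gene of the DIVARICATA type, reached 346 and 431 from 39.3 and 60.1, a rise of 2.63 ± 0.20. The bZIP gene AT5G04840 rose by 2.52 ± 0.18, from 52.3 and 58.9 to 466 and 335. AT1G21000, which encodes a zinc-binding protein of the PLATZ family, had signals of 312 and 254 in KCl and 1191 and 1197 in nitrate (2.02 ± 0.13). No KCl array reached a nitrate array in any of the 5 genes. That was so for all 114 called rises and for 13.8% of all probe sets.

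A further 4 genes of transcription factors passed with low signals left out but not over all probe sets. HYH, the bZIP homolog of the light regulator HY5, had signals of 58.6 and 31.9 in KCl against 347 and 201 in nitrate (log2 change of 2.23 ± 0.33). The B3-domain gene AT3G11580 (1.59), the AP2/ERF gene AT4G39780 (1.19) and the bHLH gene AT1G61660 (0.83) had smaller changes. AT3G11580 and AT4G39780 were kept in that test through their nitrate arrays, since their means in KCl were below the limit.

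Among the genes called over all probe sets, 3 rises and 1 fall were assigned to signalling. Such groups, here and in the other paragraphs, were assigned by hand to genes already called. Their counts are therefore not shares of a class. Over all probe sets 0.501% of those tested rose and 0.022% fell. WNK7 (AT1G49160), a kinase of the WNK family, which lacks the usual catalytic lysine, went from 22.0 and 20.3 to 239 and 222, a rise of 2.73 ± 0.13 (SE; limma, adjusted p = 0.00494). AT4G32950, a protein phosphatase of type 2C, the class that opposes many plant kinases, went from 48.2 and 61.7 to 521 and 407 (2.75 ± 0.17; limma, adjusted p = 0.00891). AT5G54130, which encodes a calcium-binding protein of the endonuclease/exonuclease/phosphatase family, had signals of 67.7 and 65.9 against 340 and 340 on its called probe set, a rise of 2.1 ± 0.10, and its other probe set changed by 1.63 and passed with low signals left out but not over all probe sets. In that narrower test 4 more signalling genes passed as rises and 4 as falls. The rises were the phosphatases AT3G16560 (1.89) and AT5G26010 (0.92), PSY1R (1.07), a receptor kinase for a secreted sulfated peptide, and the protein kinase ATMRK1 (0.82).

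Protein turnover was represented by proteases and ubiquitin ligases. AT5G19120, an aspartyl protease, rose by 1.81 ± 0.13, from 123 and 142 to 540 and 473. AT1G59970, a secreted matrix metalloproteinase, rose by 1.63 ± 0.12, from 80.3 and 75.9 to 291 and 260. The RING proteins AT5G20885 and AT1G71980, of the type that transfers ubiquitin to target proteins, rose by 1.15 ± 0.11 and 1.1 ± 0.10, from 466 and 453 to 1113 and 968 and from 213 and 227 to 488 and 494. Called with low signals left out but not over all probe sets were the U-box ligase AT5G09800 (38.2 and 15.9 against 421 and 252, 3.04 ± 0.35), the ubiquitin-conjugating enzyme UBC18 (1.15) and the RING genes AT2G42350 (1.14) and AT1G72200 (0.97). Of these, AT5G09800 had a mean in KCl below the limit and was kept through its nitrate arrays.

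The remaining rises with a known family reached from secondary metabolism to lipids and transport. AT2G48080, an oxygenase of the family that uses iron and oxoglutarate, was the second largest rise with a name, from 50.8 and 43.6 to 894 and 851 (3.82 ± 0.11, SE; limma, adjusted p = 0.00259). BAT1 (AT4G31910), an acyltransferase known to lower active brassinosteroid hormone, went from 179 and 219 to 1270 and 1069, a rise of 2.46 ± 0.15, and a relative of the same enzyme class, AT5G42830, rose by 2.23 ± 0.15. AT4G36010, a secreted thaumatin-like protein, rose by 2.93 ± 0.14, from 90.4 and 88.4 to 880 and 702. AT5G54170, with a START lipid-binding domain, rose by 2.28 ± 0.23, and PMEAMT, which methylates phosphoethanolamine on the way to phosphatidylcholine, by 0.96 ± 0.10.

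In transport and redox chemistry, 3 further genes rose. The major facilitator AT5G10820 went from 177 and 172 to 589 and 472 (1.51 ± 0.14), and AT5G03380, with a heavy metal-associated domain, from 432 and 488 to 960 and 981 (1.05 ± 0.11). The plastidial peroxiredoxin AT3G52960, which removes peroxides, rose by 1.11 ± 0.09, from 252 and 245 to 551 and 561. With low signals left out, AT5G18840, a major facilitator of the sugar transporter group (1.16), the cytochrome P450 gene CYP78A9 (1.44) and FMO, a flavin monooxygenase (0.99), passed as well, CYP78A9 with a mean in KCl below the limit. As a group, the 18 probe sets of genes with a stated family that passed as rises in the narrower test but not over all probe sets, the second probe sets of AT3G47980 and AT5G54130 included, had adjusted p between 0.054 and 0.208 over all probe sets, between 0.00219 and 0.0463 with low signals left out, and between 0.000542 and 0.928 over all alternatives.

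A stated family was available for 30 of the 54 rises with a gene name; the other 24 rose by 1.14 to 3.61. Among them AT3G07350 (3.61 ± 0.19) went from 26.6 and 14.1 to 424 and 418, and AT5G10210 (3.51 ± 0.17) from 1.00 and 1.11 to 163 and 195. AT3G50900 (3.04), AT1G49000 (2.6), AT5G01740 (2.54), AT4G02920 (2.41) and AT4G09620 (2.4) complete the 20 largest rises, which had adjusted p of at most 0.039 (limma). The rule that chose these 20 required KCl and nitrate arrays that did not overlap. The 2 largest rises of all had no named gene, and their probe sets, 264859_at and 265475_at, went from 50.9 and 53.6 to 2084 and 1762 (4.82 ± 0.12) and from 96.6 and 96.5 to 2484 and 2825 (4.57 ± 0.11). In all, 60 of the 114 rises were unnamed.

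**Figure D2:**
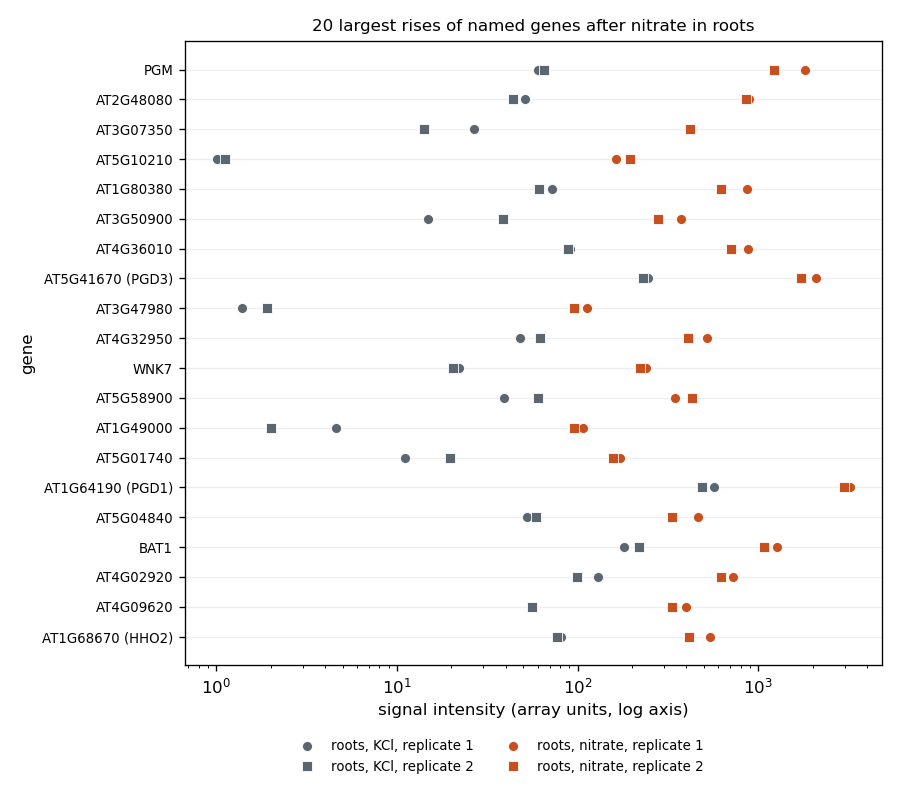
Signal intensity (array units, log axis) on each of the 4 root arrays for the 20 largest rises with a gene name, with KCl arrays in grey and nitrate arrays in orange, and circles and squares for replicates 1 and 2. Both nitrate arrays lie to the right of both KCl arrays, as the choice of genes required, and AT5G10210, AT3G47980 and AT1G49000 start from KCl signals of at most 4.62.

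The falls called over all probe sets were few and shallow. AT4G17670, which encodes a small zinc finger protein of the FLZ type (formerly DUF581), a family that binds the energy-sensing kinase SnRK1, went from 614 and 589 in KCl to 197 and 186 in nitrate. Its log2 signal fell by 1.57 (SE 0.10; limma, adjusted p = 0.00891), and both nitrate arrays stood far below both KCl arrays. The protein phosphatase 2C gene AT3G16800 had signals of 135 and 136 against 46.0 and 51.8 (log2 change of -1.23 ± 0.13; limma, adjusted p = 0.0463). AT4G18630 and AT5G60680 fell by 1.15 and 0.98 (limma, adjusted p = 0.049 and 0.0434), from 138 and 143 to 57.3 and 52.0 and from 266 and 255 to 125 and 124. The fifth fall was the unnamed probe set 258487_at, at 334 and 390 in KCl against 149 and 159 in nitrate (log2 change of -1.15). These 5 missed the threshold under 4 to 9 of at most 15 alternatives, with adjusted p between 0.00073 and 0.921, and none changed direction. For the 39 named rises, counted by probe set with the 2 unnamed ones, the alternatives missed ranged from 1 to 9, with adjusted p of at most 0.413 and log2 changes between 0.83 and 6.44.

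With low signals left out, 41 more genes passed as falls, of which 18 had a stated family and are given here. The FLZ genes AT1G74940 and AT5G47060 went from 309 and 274 to 108 and 132 (-1.18 ± 0.14) and from 310 and 289 to 152 and 126 (-1.03 ± 0.13). Both genes had both nitrate arrays below both KCl arrays, as did 21.1% of all probe sets. Calcium sensors of the calmodulin-like group were there too, with CML38 at 119 and 86.2 against 43.3 and 22.1 (-1.30 ± 0.27) and CML23 at 83.4 and 87.2 against 43.8 and 39.4 (-0.82 ± 0.14). The protein kinase AT1G07870 (-1.02) and the small GTP-binding protein SGP1 (-0.94) were the other signalling genes.

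In the same narrower test 6 genes of transcription factors passed as falls. TINY (tny), an AP2/ERF gene, had signals of 331 and 306 in KCl and 111 and 154 in nitrate (-1.19 ± 0.17), and AT2G44940, also AP2/ERF, 243 and 263 against 119 and 137 (-0.90 ± 0.12). The PLATZ gene AT4G17900 had 491 and 450 against 214 and 277 (-0.90 ± 0.15), the opposite direction to its relative AT1G21000. The Dof gene AT1G29160 (-0.74), NAI1 (-0.71), the bHLH regulator of ER bodies, and the MYB-like gene AT1G74840 (-0.67) changed least.

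The other 6 of the 18 genes were the aspartyl protease AT5G10770 (291 and 308 against 60.4 and 139, -1.53 ± 0.34), the acyltransferase AT2G40230 (-1.34), whose mean in nitrate was below the limit for low signals, SUFE2 (-1.20), which activates sulfur transfer for iron-sulfur clusters, the lipase DLAH (-1.12), ARL (-1.10), which promotes cell expansion, and the purine transporter AZG1 (-0.77). The acyltransferase thus ran against AT5G42830 and BAT1 of its class, and the aspartyl protease against AT5G19120. Over all probe sets the adjusted p of the 18 genes with a stated family in this group lay between 0.0593 and 0.253, with low signals left out between 0.00469 and 0.0478, and over all alternatives between 0.00456 and 0.876. The summed signal of the 4 green tissue markers was 300.0 and 359 on the KCl arrays and 277 and 241 on the nitrate arrays. The sum was lower in nitrate with no overlap, but the arrays overlapped for RCA, PRK and SBPASE and were apart for LHCB4.1 alone. Both nitrate arrays lay below both KCl arrays in 21.1% of all probe sets. None of the 4 genes passed the test, and the part of this sum in the rises and falls was not tested.

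**Figure D3:**
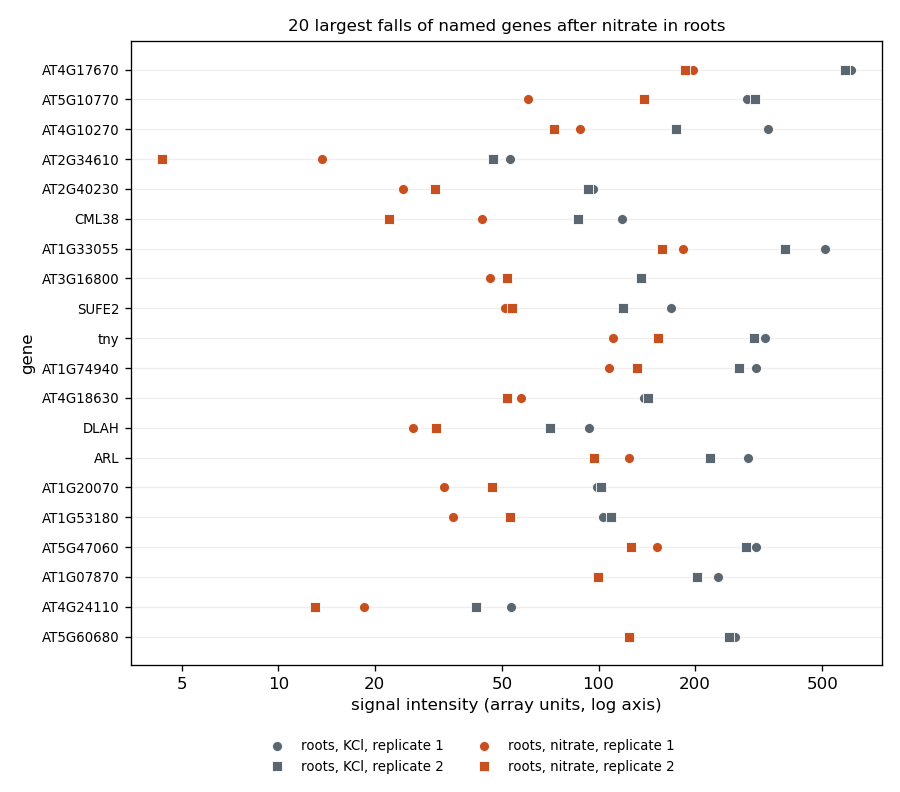
Signal intensity (array units, log axis) on each root array for the 20 genes with the largest falls among those called over all probe sets or with low signals left out; KCl is grey and nitrate orange, and circles and squares are replicates 1 and 2. Every gene has both nitrate arrays to the left of both KCl arrays, as have 21.1% of all probe sets. The genes run from AT4G17670 (-1.57) at the top to AT5G60680 (-0.98) at the bottom.

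Several of these falls belong to genes known to rise when roots run short of oxygen, such as CML38 and the FLZ genes AT4G17670 and AT5G47060. A list of 45 such genes was therefore written from general knowledge after the falls had been seen, so the genes that led to it count among its members, and no test was made. Of its 45 genes, 23 had a named probe set. All 23 were lower in nitrate in mean, as were 56.6% of all probe sets. Their median log2 change was -0.94 against -0.02 over all probe sets. One was called lower over all probe sets (0.022% of all), and 8 with low signals left out (0.557% of the 13647 probe sets kept). Of these 8, AT4G24110 and AT3G23170 were kept through their KCl arrays, with means in nitrate below the limit for low signals. Since some of these falls led to the list, nothing is read from these counts. In 18 of 23 both nitrate arrays lay below both KCl arrays, which was so for 21.1% of all probe sets.

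Examples show the size of the change. AT4G10270 had 337 and 174 in KCl against 87.7 and 72.8 in nitrate, and AT1G33055 had 509 and 381 against 183 and 158. PDC2, a pyruvate decarboxylase of ethanol fermentation, had 925 and 632 against 632 and 505, and AT3G10040 (HRA1), a repressor of the low-oxygen response, 50.7 and 73.1 against 18.5 and 26.3. The smallest change was that of AT5G66985, at 714 and 360 against 606 and 382 (log2 change of -0.07), whose arrays overlapped. Without the 8 genes called as falls, the 15 others were all lower in mean, as were 56.6% of all probe sets. Their median was -0.60. In 10 of the 15 both nitrate arrays lay below both KCl arrays, which was so for 21.1% of all probe sets. The list was written after the falls had been seen, so these 15 give no independent support and nothing is read from them.

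These genes also differed by replicate number. AT3G29970 had signals of 1063 in KCl and 424 in nitrate on the arrays numbered 1, but of 254 and 140 on those numbered 2. In 17 of the 23 genes the array numbered 1 was the higher of its pair in both treatments, against 30% of all probe sets. Within a replicate number, 22 of 23 were lower in nitrate in both comparisons (33.5% of all probe sets), with medians of -0.95 and -0.81. In shoots 16 of 23 were lower, with a median of -0.09. The share of all probe sets lower in shoots was not worked out, so nothing is read from this count.

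**Figure D4:**
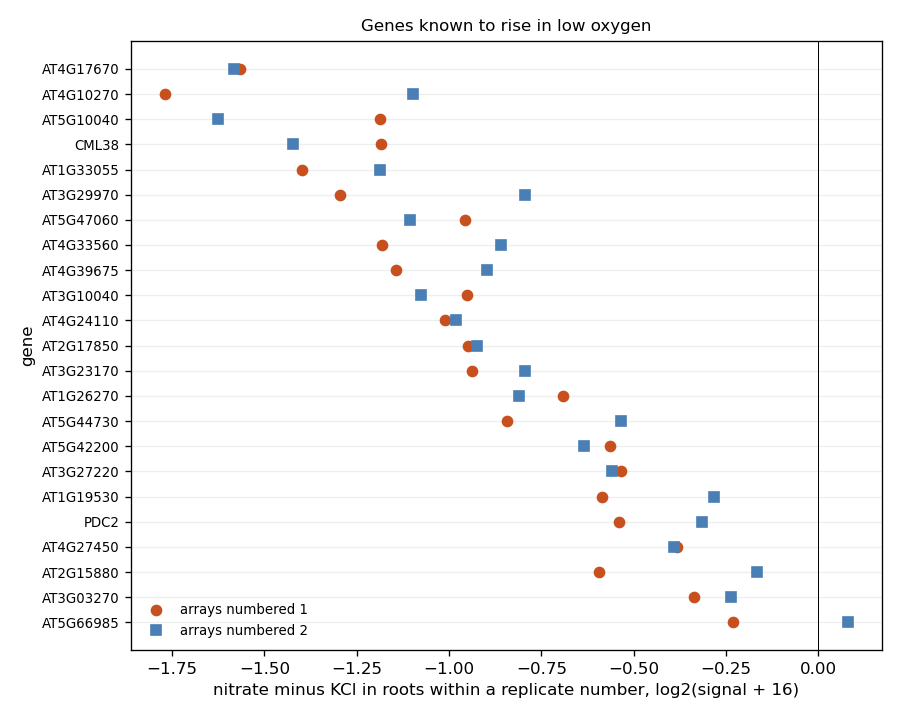
Change from KCl to nitrate in roots, in log2(signal + 16), for the 23 measured genes known to rise in low oxygen, computed within the arrays numbered 1 (orange circles) and within those numbered 2 (blue squares). All points lie to the left of 0 except that of AT5G66985 for number 2, at 0.08.

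The genes of 20 lists on nitrate assimilation, its regulation and likely side effects were read next. Of 358 genes listed, 70 had a named probe set, 10 lists had at least 3 measured genes, and 3 lists (ammonium assimilation, trehalose 6-phosphate and phosphate starvation) had none. Over all probe sets 0.501% rose. The lists were chosen with earlier results of these data known, so nothing is read from their counts against that share. Nitrate and nitrite reduction had 3 rises among 4 measured genes, which are those described above, and SIRB, the ferrochelatase of siroheme, did not pass (log2 change of -0.05). In the pentose phosphate list 2 of 7 rose, and the other 5 lay between -0.17 and 0.06. In glycolysis and carbon supply 3 of 12 rose, and 9 did not pass; the list's median was 0.35. Among 7 nitrate regulators 2 rose, with a median of 1.14, and AT3G25790 (HHO1) had signals of 4.89 and 7.57 against 42.4 and 25.1, which did not pass (log2 change of 1.14; limma, adjusted p = 0.205).

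No member of the other lists passed the test. For nitrate transport the only measured gene was NRT2.5, a high-affinity transporter of starved plants, and its nitrate arrays disagreed, with 160 and 131 in KCl against 188 and 51.7. Among 8 class III glutaredoxins, small redox proteins of which several respond to nitrate, AT3G62930 had the largest change, from 4.72 and 7.11 to 48.4 and 38.1 (1.43 ± 0.18; limma, adjusted p = 0.0673), and the median was 0.16. SIR, the sulfite reductase of sulfate assimilation, had 304 and 297 against 460 and 432 (0.55 ± 0.10; adjusted p = 0.167), whereas APS3 and APS4, of the step that activates sulfate, were at 0.05 each.

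The hormone and stress lists are given as values. Over all probe sets 56.6% were lower in nitrate in mean. Of 7 early auxin genes 6 were lower, with a median of -0.34, and the lowest was WES1, which conjugates auxin to amino acids, at 189 and 221 against 111 and 149 (-0.61; limma, adjusted p = 0.393). The 2 cytokinin response regulators ARR15 (-0.61) and RR16 (-0.51) were also lower in mean, from signals of at most 27.5. The 4 iron-shortage genes lay between -0.44 and -0.05. WRKY53 (-0.74) and STZ (-0.19), of the touch and wounding list, ATHSP22.0 (-0.60) and AT1G53540 (-0.37), small heat shock proteins, and the clock gene GI (-0.14) did not pass. MCCA (0.12) and IVD, of amino acid breakdown in starved cells, and the reference gene AT4G34270 (-0.08) moved little, as did PYK10 (-0.02), the abundant root glucosidase, at 3083 and 3727 against 3177 and 3502.

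**Figure D5:**
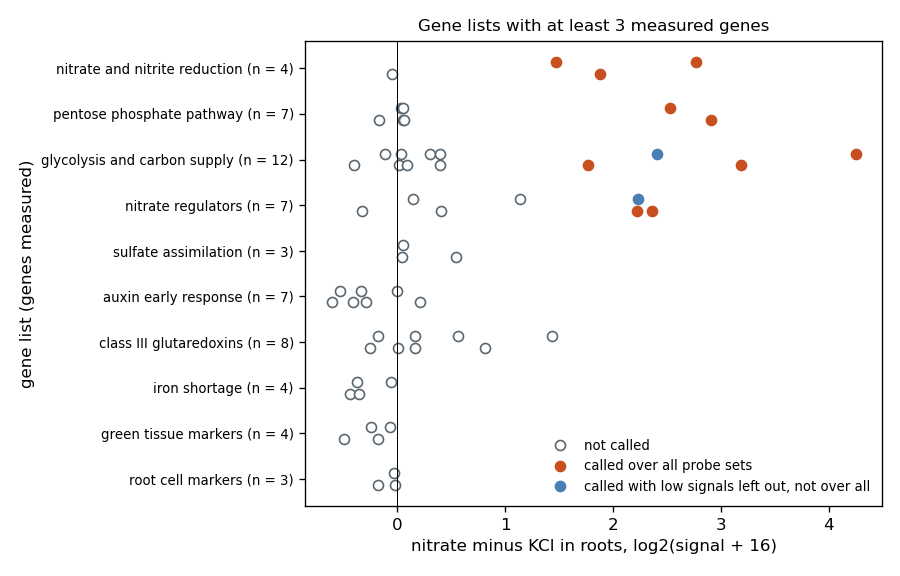
Each circle is 1 gene of a list with at least 3 measured genes, placed by its root change, nitrate minus KCl, in log2(signal + 16); circles are offset vertically only to keep them apart. Called genes (filled) occur in 4 lists, nitrate and nitrite reduction, the pentose phosphate pathway, glycolysis and carbon supply, and nitrate regulators, and all lie to the right of 0, while the open circles of the other lists stay at or below 1.43.

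Shoots moved in the same direction for most of these genes, by less. Of the 114 root rises, 110 were positive in shoots, with a median log2 change of 0.64 there against 2.08 in roots, although the genes were chosen for their root values and shoot values need not be as high. The share of all probe sets that were positive in shoots was not worked out, so the 110 cannot be set against it. The 5 root falls had a median of -0.22 in shoots. PGM changed by 3.61 in shoots, PGD3 by 2.49, HHO2 by 1.87 and HHO3 by 1.83. AT5G54130 stood at 2.32 in shoots against 2.1 in roots, and the unnamed 265475_at at 4.54 against 4.57.

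The difference between the root and the shoot response was tested over all 8 arrays. It passed for 3 probe sets (0.0132%), all with the larger rise in roots (limma), and 770 had an unadjusted p under 0.05. AT2G48080 had shoot signals of 48.9 and 34.2 in KCl and 50.1 and 61.3 in nitrate, so that its root rise exceeded that of shoots by 3.49 ± 0.26 (SE; limma, adjusted p = 0.0295). For glycerate kinase, AT1G80380, the difference was 2.79 ± 0.25 (limma, adjusted p = 0.0388): its shoot signals were 268 and 253 in KCl, well above those of roots in KCl, and 348 on each nitrate array. AT3G47980 differed by 2.65 ± 0.23 on its first probe set (limma, adjusted p = 0.0388), with shoot signals of at most 2.71, but by 0.71 on the second, which did not pass. With any 1 of the 8 arrays left out none of the 3 passed.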

How the data were processed

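Signal intensities from Affymetrix ATH1 arrays, 1 biotin-labelled sample per array, were used as deposited, not log-transformed. They came from MAS5 and GCOS, per the submitters' processing notes; for versions and filters nothing is given in the sources used here. On every array the mean without the lowest and highest 2% of probe sets was about 100.01. The 64 control probe sets were left out and no filter was applied. In R 4.3.3 with limma 3.58.1, log2(signal + 16) was fitted on the 4 root arrays with lmFit and eBayes with a trend (2 residual degrees of freedom, 3.07 prior), two-sided, with Benjamini-Hochberg adjustment over 22746 probe sets. The difference from shoots was fitted on all 8 arrays. Leaving out low signals kept probe sets with a mean over the root arrays above the 40th percentile (27.9). The fitting code was run on simulated data with independent noise and no replicate effect. That run does not show how the fits perform on these arrays. Figures used matplotlib 3.10.9.

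Gene names came from the probe table of the platform annotation, which pairs 13513 probe sets with 1 gene, 503 with several and 8730 with none; 13436 of the first matched a TAIR10.1 RefSeq record. Names in brackets after a locus number, and families of genes known by locus number, are general knowledge. The naming rule took the 20 largest rises and falls among called, singly named probe sets with no overlap between KCl and nitrate arrays, up to 6 called members of each list or 2 with the smallest p as values, up to 5 called genes per description class, 2 unnamed probe sets in each direction and 5 differences from shoots. The table gives no descriptions, so classes could be matched only to symbols and synonyms, for 506 probe sets and 3 of the rises. Other genes, those called with low signals left out but not over all probe sets among them, were chosen after their values were seen. The members, lists and tests were chosen with earlier results of these data known. A planned search of promoters for motifs was not run, and promoter sequences were not used here. Samples of the same number have not been shown to be pairs: their deviations from the group means correlated with r = 0.288 over probe sets, with only 2 pairs.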

Additional observations from a re-analysis of the deposited data

Results flagged for a closer look

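The root response exceeded the shoot response in 3 probe sets by the test of the difference itself over all 8 arrays (limma, Benjamini-Hochberg): AT2G48080 by 3.49, AT1G80380 by 2.79 and AT3G47980 by 2.65 on the log2(signal + 16) scale. In each of the 3 genes both root nitrate arrays lay above both root KCl arrays, which was so for 13.8% of all probe sets. The other probe set of AT3G47980 had log2 changes of 1.84 in roots and 1.13 in shoots, a difference of 0.71 that did not pass.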

How the results depend on the processing

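The 114 rises became 173 under median scaling, 252 and 242 with probe sets kept above the 40th percentile or above a mean signal of 50, 273 with the replicate block, 45 among probe sets of 1 gene and 43 at an adjusted p under 0.01; other settings that kept all arrays gave 76 to 171. The 5 falls became 25 at a pseudocount of 1 and 1 at 64, 2 after quantile normalization, 10 under median scaling, 76 and 73 with the filters, 1 without a trend, 109 with the replicate block, 1 among probe sets of 1 gene and 1 at an adjusted p under 0.01. The 3 differences from shoots became 1 in the robust fit, 21 with the replicate block and 0 at an adjusted p under 0.01. Leaving out 1 array gave 0 to 45 rises, 0 to 1 falls and 0 differences; a lone sample was then assumed to vary like the other group. All 114 rises and 5 falls were also called with the replicate block. With the block, 273 of 22746 probe sets rose and 109 fell. Among genes with a stated family called with low signals left out but not over all probe sets, 16 of 18 rises and 14 of 18 falls passed with it. So did 11 of the 23 low-oxygen genes, 6 of them among the 8 called with low signals left out. The low-oxygen list was written after the falls had been seen, so nothing is read from that count. Of members of the other gene lists called neither over all probe sets nor with low signals left out, 2 are given here. SIR (limma, adjusted p = 0.0387, range over the alternatives 0.0387 to 0.542) and AT3G62930 (0.041, range 0.0181 to 0.441) passed with the block.

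No called gene named here changed direction. The alternatives were run for only part of the genes that were not called. PYK10, APS3, SBPASE, SIRB and AT5G66985 were not among these, so the stability of their direction was not checked. Among those run, the change turned on leaving out 1 array for NRT2.5 (-1.25 to 0.34), AT1G53540 (-1.10 to 0.36), RCA (-0.50 to 0.011) and STZ (-0.71 to 0.32). The same held for EXPA7 (-0.38 to 0.023), GI (-0.40 to 0.12), AT4G34270 (-0.20 to 0.045), EXPA18 (-0.15 to 0.090) and IVD (-0.092 to 0.089). The change also turned for EXPA18 under median scaling (0.012), for IVD after quantile normalization (0.047) and median scaling (0.043), and for APS4 after quantile normalization (-0.0090). The cause was not tested, except that settings with fewer arrays or fewer probe sets differ by construction. Signals near 0, such as those of AT5G10210 in KCl, limit how far a fold can be read.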
